A study of Homo sapiens with 2 samples.

Results

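The binding sites described here are those that the authors' annotation placed at the start or the end of a transcript, in a list of sites bound by YBX1 (Y-box binding protein 1). The cells were HEK293, an established line from human embryonic kidney. HOMER, a program that labels a genomic interval by the nearest or overlapping gene feature, had written promoter-TSS (around a transcription start site), 5′ UTR or TTS (around a transcription termination site) beside each of them. Of the 2054 sites in the list, 224 carried one of these 3 labels, which is 10.9%. The 58 promoter-TSS and 19 5′ UTR sites are called the 5′ side (77 sites) and the 147 TTS sites the 3′ side. The study used the list to look for RNAs bound directly by YBX1, which it examined in medulloblastoma, a childhood brain tumour. Per its methods, a T-REx Flp-In derivative of HEK293 overexpressed YBX1 with a FLAG and HA tag, and the tag served for immunoprecipitation, whereas the labels name an antibody against YBX1 itself, and which of them holds for this list cannot be told from the sources used here. The study made 2 replicate libraries and deposited 1 list from both, without untreated or control cells. There is thus no spread between replicates, the list gives no read count or score per site, and the depth behind a site is unknown. Intervals and p-values below cover counting error over sites only, and sites are not replicates of a condition.

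YBX1 is a cold-shock domain protein that coats mRNA in the cytoplasm and takes part in its storage, stability and translation. In PAR-CLIP, cells take up 4-thiouridine, a uridine analogue that ultraviolet light crosslinks to bound protein; the bound RNA is trimmed with RNase T1, which cuts after G, and is then sequenced. The start and the end of an mRNA are where control elements sit: the cap and the start codon on one side, and the polyadenylation signal AAUAAA or, in replication-dependent histone mRNAs, a terminal stem-loop on the other.

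The sequences below were read from the human genome (GRCh38) at the listed positions and are written as RNA from 5′ to 3′. The first set shows sites in annotated 5′UTRs that ended near to a start codon, with the site in the YBX1 mRNA itself. Capitals mark the start codon AUG where a site ran into it.
GJC1: cauaccaauucaaucaccAUG
SNRPA: acuuaccucaacacuucacuccAUG
HSP90AB1: uauaauccuuuucuuuucaag
SLC20A1: uucucuuacuaaacaaccacuacuccag
TXNIP: ucauuucuaacucuuaaaaccaacucag
POLR1H: uuaauaaacuuccaacucccuccucag
YBX1: uuaccaucacaccccgggaggagccg

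The second set shows the sites at the ends of replication-dependent histone mRNAs: the last 12 bases of each site and the bases that follow it. Capitals mark GCNCUUU, a part of the histone stem-loop, and this motif began directly after the last base of the site in all 6 mRNAs. The final g of each site belongs to the stem as well.
H1-2: aaaacccaaaagGCUCUUUucagagcc
H2BC11: ucaacccuaacgGCUCUUUuaagagcc
H2BC4: cuaaccccaaagGCUCUUUuaagagcc
H2BC18: cuaaccccaaagGCUCUUUucagagcc
H2BC5: cuaaucccaaagGCUCUUUuaagagcc
H4C8: uuucaaccaaagGCCCUUUucagggcc

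The third set shows 7 of the 8 3′ side sites within 60 nt of a transcript end that hold the polyadenylation signal, with AAUAAA in capitals.
RPS24: aacauuAAUAAAcuaaaaacuucaug
TRIM28: auuuAAUAAAaacuucaccag
MYG1: ucuAAUAAAaccuuccaucucauacug
CENPX: aacaucAAUAAAucaaaacug
SH3GLB1: uuuccaacuuucauuAAUAAAg
NOLC1: ucuaaaucuuacuacaaaauAAUAAAcug
SSR4: cuuccuucAAUAAAcaucacag

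The labels start and end of a transcript were checked against GENCODE 44, a later gene annotation, on the strand the list gives for each site. An exon on that strand covered the midpoint of 64 of the 77 5′ side sites (83.1%, Wilson 95% interval 73.2 to 89.9) and of 133 of the 147 3′ side sites (90.5%, 84.6 to 94.2). On the 5′ side, 19 sites lay in a 5′UTR (24.7%, 16.4 to 35.4), 19 in a 3′UTR, 15 in a coding exon and 11 in a noncoding exon. On the 3′ side, 116 sites lay in a 3′UTR (78.9%, 71.6 to 84.7), 10 in a coding exon, 7 in a noncoding exon and 0 in a 5′UTR. Of the 2054 sites of the whole list, 1767 lay in an exon on their strand (86.0%), 24 in a 5′UTR (1.17%) and 1138 in a 3′UTR (55.4%). The equal counts on the 5′ side pooled labels that went opposite ways. Of the 58 promoter-TSS sites, 16 lay in a 3′UTR and 6 in a 5′UTR, and of the 19 sites labelled 5′ UTR, 3 lay in a 3′UTR and 13 in a 5′UTR.

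**Figure D1:**
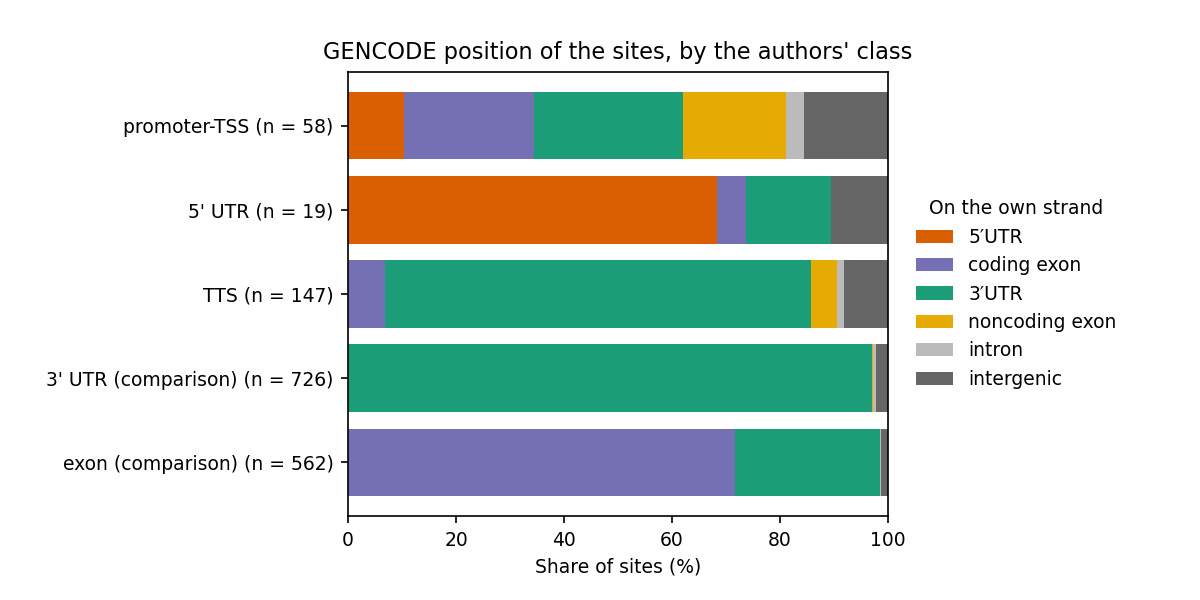
Share of sites (horizontal axis, percent) by their position in GENCODE on the own strand, 1 bar for each class of the authors' annotation. The 58 promoter-TSS sites spread over all 6 positions, 13 of the 19 5′ UTR sites lie in a 5′UTR, and 116 of the 147 TTS sites lie in a 3′UTR. The 3′ UTR and exon classes are drawn for comparison.

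The gene that the annotation names was often not the gene whose RNA held the site. These labels reach outside the named gene. Promoter-TSS midpoints lay a median of 486 nt before its nearest annotated start, with 7 of 53 past that start. Of the TTS sites, 89 of 142 lay past its nearest annotated end, and the median over the 142 was 149.5 nt past it. The strand of the named gene could be found for 211 of the 224 sites, and 71 of those lay on the opposite strand, which the named gene's mRNA cannot contain. On the 5′ side 48 of 68 sites shared the strand of the named gene (70.6%) and on the 3′ side 92 of 143 (64.3%). This difference of 6.25 percentage points (Newcombe 95% interval -7.58 to 18.8) was not called by Fisher's exact test (two-sided, p = 0.436, adjusted over 4 comparisons 0.582). By label, 34 of 53 promoter-TSS sites and 14 of 15 sites labelled 5′ UTR shared the strand, so that with promoter-TSS alone the difference from the 3′ side was -0.185 points. With the strand of the gene in the authors' gene column it was 12.5 points (-1.81 to 24.7), and among sites wider than the median of the list 13.3 points (-7.11 to 30.2). For comparison, 704 of 724 sites of the 3′ UTR class and 554 of 562 of the exon class shared the strand of their named gene. The GENCODE span of the named gene covered 721 of 726 and 560 of 562 sites of these classes, against 114 of the 224. HOMER labels without regard to strand, so this contrast is tied to how the labels are given and was not tested. An exon of the named gene itself held 20 of 77 sites on the 5′ side (26.0%, 17.5 to 36.7) and 69 of 147 on the 3′ side (46.9%, 39.1 to 55.0). An exon of another gene held the site while the named gene ran on the same strand in 23 and 14 cases, and while it ran on the opposite strand in 15 and 46 cases.

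**Figure D2:**
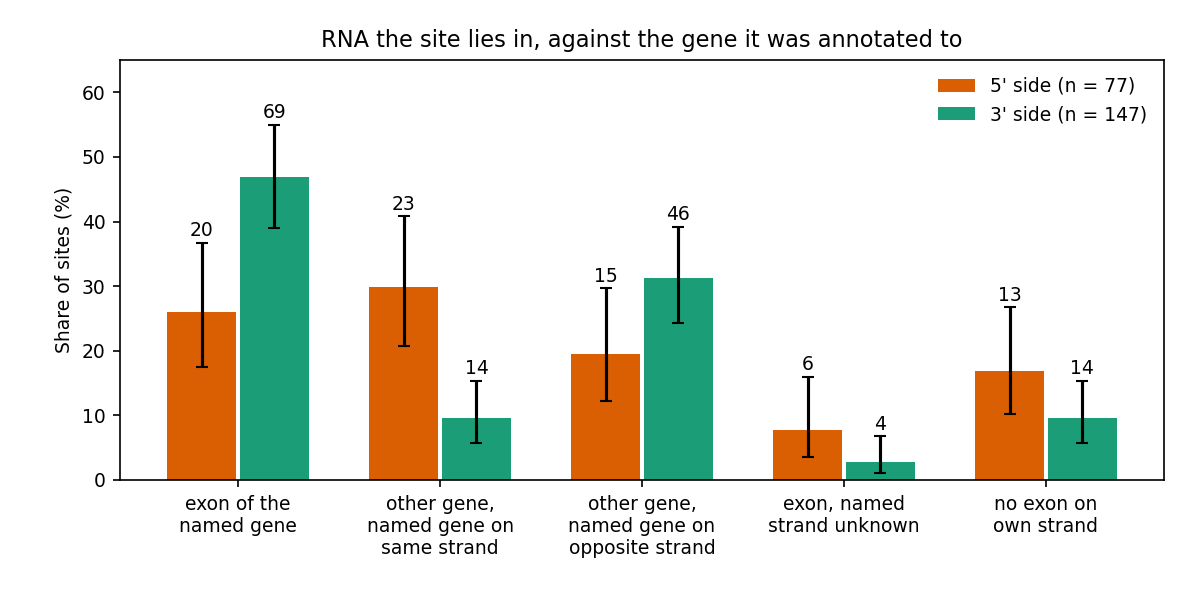
Share of sites (vertical axis, percent, with Wilson 95% intervals) by the RNA they lie in, for the 5′ side and the 3′ side; the number above a bar is the number of sites. The 3′ side holds more sites in an exon of the named gene (69 of 147 against 20 of 77), and the 5′ side a larger share in another gene on the same strand (23 of 77 against 14 of 147).

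The 19 sites in 5′UTRs came from 18 mRNAs with varied functions. Their midpoints lay a median of 222 nt from the annotated transcript start (43 to 1242 nt) and a median of 65 nt before the start codon (8 to 1084 nt). In 7 of the 19 the last base of the site lay inside the start codon or within 20 nt of it. The sites of GJC1 (connexin 45, a gap junction protein; chr17:44805815-44805835) and SNRPA (a protein of the U1 spliceosomal particle; chr19:40751387-40751411) ended on the G of the start codon, as the first set of sequences shows. They were the only 2 sites among the 2054 of the list that lay in a 5′UTR and reached the start codon. The site of HSP90AB1, the constitutive cytosolic HSP90 chaperone (chr6:44247175-44247195), ended on the base just before the start codon.

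Further upstream, the site in the mRNA of SLC20A1, a phosphate transporter, ended 4 nt before the first coding base, that of TXNIP, an inhibitor of thioredoxin, 8 nt, and that of POLR1H, a subunit of RNA polymerase I, 11 nt before it. The RAMAC site (the activating subunit of the mRNA cap methyltransferase) ended 36 nt and the YBX1 site 40 nt before it. The YBX1 site (chr1:42682501-42682526) lay in exon 1, with its midpoint 96 nt from the transcript start and 53 nt before the start codon, in a 5′UTR of 148 nt. The YBX1 site held runs of G before its last base, which the other 6 sequences shown did not. The list held 2 sites in YBX1 in all.

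GJC1 held a second site in its 5′UTR (chr17:44807427-44807450), 54 nt from the first coding base in the spliced mRNA, in the exon before the one that holds the start codon. The sites of the transcription factors MNX1, HES1 and NR2F2 ended 97, 119 and 154 nt before the start codon. Those of POGZ, a zinc finger protein of chromatin, and RNF26, a ubiquitin ligase, ended 112 and 230 nt before it. The sites of SMC4, a condensin subunit, and TOR1AIP2, an activator of torsin ATPases, ended 257 and 285 nt before it. The farthest were ZBED6 (736 nt), a transcriptional repressor, and CLDN15 (1075 nt), a tight junction claudin whose site lay 43 nt from the transcript start. MNX1 and POLR1H were reached through antisense neighbours: the annotation named MNX1-AS1 and POLR1HASP, on the opposite strand.

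**Figure D3:**
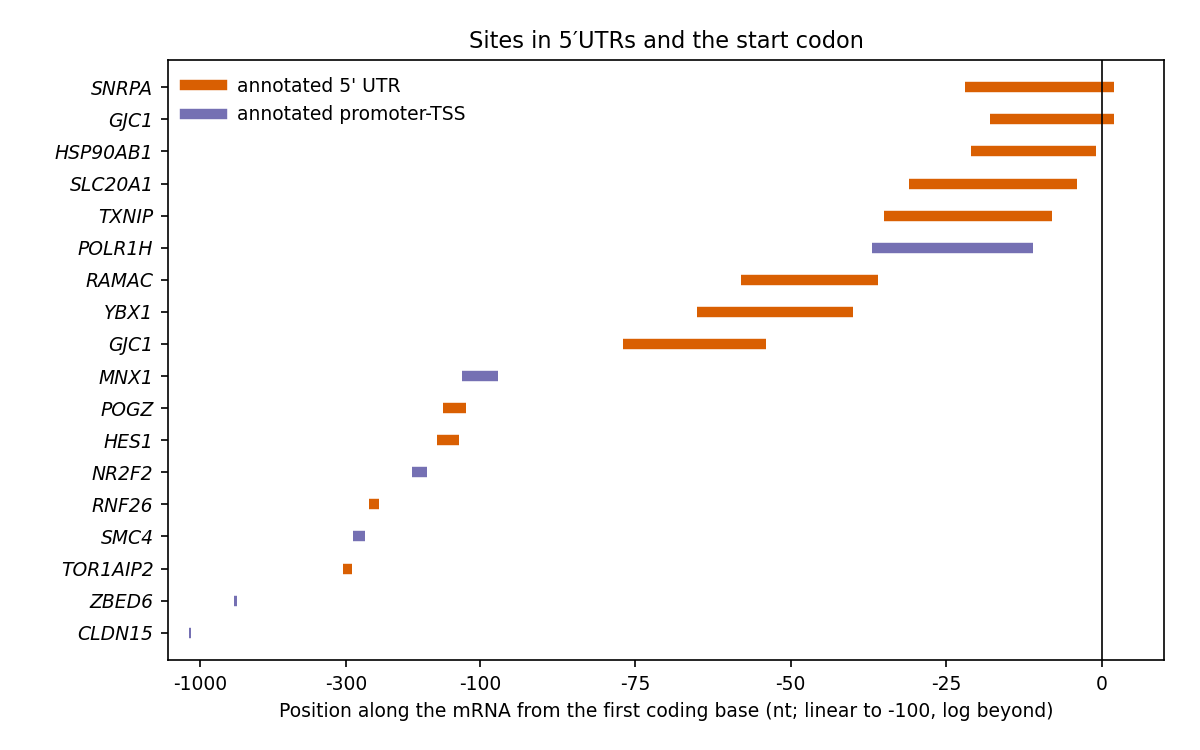
Position of 18 of the 19 sites in 5′UTRs along the mRNA (horizontal axis, nt from the first coding base at 0, linear near the start codon and logarithmic farther upstream), 1 bar per site from its first to its last base, coloured by the authors' class. The GJC1 and SNRPA sites run into the start codon, and 6 of the 18 shown end no farther than 20 nt before it.

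The remaining sites labelled 5′ UTR lay elsewhere. The 3 sites annotated to LUZP6 lay in the 3′UTR of MTPN (myotrophin), whose transcript overlaps LUZP6, at 1274, 1340 and 2405 nt before the transcript end. MTPN was thereby the gene with the most sites in the set. The site annotated to JUN, a subunit of the AP-1 transcription factor, lay in its coding exon in GENCODE, 950 nt from the transcript start. The site annotated to MALL lay in no exon on its strand, and that of MTRNR2L4 is described with the copies of mitochondrial DNA below.

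Among the promoter-TSS sites, 15 of the 19 on the strand opposite to the named gene lay in an exon of another gene, and so did 23 of the 34 on the same strand. CCT5 (a subunit of the TRiC chaperonin) held a site 26 nt after a transcript start that was annotated to ATPSCKMT, and UQCRQ (a subunit of respiratory complex III) held one annotated to GDF9. The mRNAs of HIGD2A, a mitochondrial membrane protein, and DR1, a repressor of RNA polymerase II transcription, held further coding sites of this kind. HDGF, a growth factor, held the site nearest to an annotated start, 5 nt after it, in a coding exon of its own gene. For HDGF and CCT5 the distance is to the nearest start of any GENCODE transcript on the strand. Along the transcripts that gave the position, the 34 5′ side sites in coding exons or 3′UTRs had midpoints at least 52 nt from the start. On the same strand, sites near the ends of mRNAs were annotated to the next gene: PPM1G (a protein phosphatase; 31 nt before its end) to ZNF513 and MRPS18B (a mitochondrial ribosomal protein; 44 nt) to ATAT1. The site of UFC1, the conjugating enzyme for the ubiquitin-like UFM1, lay 289 nt before its end and was annotated to USP21.

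CBX5, which encodes heterochromatin protein 1 alpha, held 2 such sites. They lay in its 3′UTR at chr12:54231613-54231632 and chr12:54231944-54231973, 680 and 1016 nt before the transcript end, and were annotated to the promoter of MIR3198-2, a microRNA gene on the same strand. The list held 8 sites in CBX5, more than in any other gene with a site in the set, and 2 of the 8 carried the name of this microRNA gene. The sequence of the first occurs at 3 places in the genome. EEF2, translation elongation factor 2, held 2 sites in its coding exons that were annotated to the small nucleolar RNA SNORD37, of 6 in the list. The sequences of these sites and of a pair of histone H2A sites are shown with every G in capitals.
CBX5 site 1: ccuuacucuuuccaucucaG
CBX5 site 2: cuuaccacuccccaaccaaucccaGGacaG
EEF2 site 1: ucaucaucuccaccuacG
EEF2 site 2: cuuccucaucaaccucauuG
H2AC11: ucaucuccaacuGGccauccG
H2AC12: ucaccuccaacuGGccauccG

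The CBX5 and EEF2 pattern was common to small RNA genes. In all, 31 sites were annotated to a small nucleolar RNA, microRNA or vault RNA (19 on the 5′ side, 12 on the 3′ side), and 30 of them lay in an exon on their own strand, mostly that of a longer gene around the small RNA. These genes were HSPA8 (a constitutive HSP70 chaperone; SNORD14C), EIF4A2 (an RNA helicase of translation initiation; MIR1248), TSR1 (a ribosome assembly factor; SNORD91A), VMP1 (an autophagy protein; MIR21) and FSTL1 (follistatin-like 1; MIR198). The EIF4A2 site lay in exon 5 of 10 of a transcript whose coding sequence ends before it, and its 3′UTR call rests on that transcript. The noncoding host genes SNHG1 and SNHG16 also held sites. On the 3′ side EIF4G2, a translation initiation factor of the eIF4G family, held 2 coding sites beside SNORD97, of 4 in the list. TPT1 (translationally controlled tumour protein; SNORA31), YY1 (a transcription factor; MIR6764), PURB (a single-strand binding protein; MIR4657), UCK2 (uridine-cytidine kinase; MIR3658) and TRIM28 (a transcriptional corepressor; MIR6807) were others. KHSRP, a KH domain protein of mRNA decay, held 1 site on each side, both in coding exons around MIR3940. The VTRNA1-3 site lay in the vault RNA itself, with its midpoint 42 nt from the transcript start, and the site annotated to SNORD19 lay in another small nucleolar RNA, which has no symbol in GENCODE.

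All 6 sites in the 3′UTR of a replication-dependent histone mRNA had their midpoint 29 to 33 nt before the transcript end: H1-2 and H2BC11 at 29 nt, H2BC4 and H2BC18 at 30 nt, H2BC5 at 31 nt and H4C8 at 33 nt. In each the site ended with the base before GCNCUUU (the second set of sequences). That motif is a part of the stem-loop that ends these mRNAs in place of a poly(A) tail. GCNCUUU, searched on the RNA strand only, followed directly on 7 of the 2054 sites of the list (0.341%), and the 1 outside the set lay in SLC3A2. The sites of H2BC4 and H2BC11 were labelled promoter-TSS of H2AC6 and H2AC11, the H2A genes that share a promoter region with them, and the other 4 were labelled TTS. The H2BC18 sequence occurs at 3 places in the genome, so which copy it came from is uncertain. H1-10 and H2AX, whose mRNAs are or can be polyadenylated, held sites 52 and 399 nt before the end, with no GCNCUUU directly after them. Sites also lay in the coding sequence of H2BC11 and of H2AC11 and H2AC12. The sequences of the last 2 differed at 1 of 21 bases, U4C from H2AC11 to H2AC12, counted from 1 at the 5′ end of the site.

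On the 3′ side, 69 sites lay in the 3′UTR of the gene that was named. Their midpoints lay a median of 399 nt before the transcript end (quartiles 45 and 1892 nt), with 25 within 60 nt and 23 over 1000 nt away. The nearest were TIMM23, a subunit of the mitochondrial inner membrane import channel, at 7 nt, and RPS24, a protein of the small ribosomal subunit, at 11 nt. MYG1, a mitochondrial exonuclease, followed at 14 nt, CENPX, a centromere protein, at 19 nt and SH3GLB1, which acts in membrane curvature and autophagy, at 25 nt. SSR4 (a subunit of the translocon-associated complex) and NOLC1 (a nucleolar phosphoprotein) held sites at 30 nt, and TUBA1B, an alpha-tubulin, at 32 nt. For some sites the nearest end of any GENCODE transcript on the strand, of the same or another gene, was closer. TUBA1B lay 4 nt past such an end. MYG1, VDAC1 (a mitochondrial outer membrane channel), RSL24D1 (a ribosome assembly factor) and CAPNS1 (the small subunit of calpain) lay 2 to 8 nt past one. LEPROTL1 and DCTN2 (a dynactin subunit) lay 8 and 9 nt past one, and CENPX and MRFAP1 lay 6 nt before one.

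AAUAAA, searched on the RNA strand only, lay in 11 of the 147 3′ side sites (7.48%), 3 of the 77 5′ side sites and 40 of the 2054 of the list. Of the 28 3′ side sites within 60 nt of the end of their transcript, 8 held it (the third set of sequences) and 22 had it inside or in the 50 nt after the site (78.6%, Wilson 60.5 to 89.8). Of the 88 3′ side sites in a 3′UTR that were farther from the end, 16 had it (18.2%, 11.5 to 27.5). The place of the signal before the cleavage site and the nearness of these sites to the end are tied to each other, so the 2 shares were not compared by a test. The ferritin light chain mRNA FTL, the cyclophilin PPIB, the glycolytic enzyme PGAM1 and the splicing cofactor SON had sites at 47, 48, 40 and 45 nt from the end, each with AAUAAA in the 50 nt after it. The PGAM1 sequence occurs at 3 places.

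**Figure D4:**
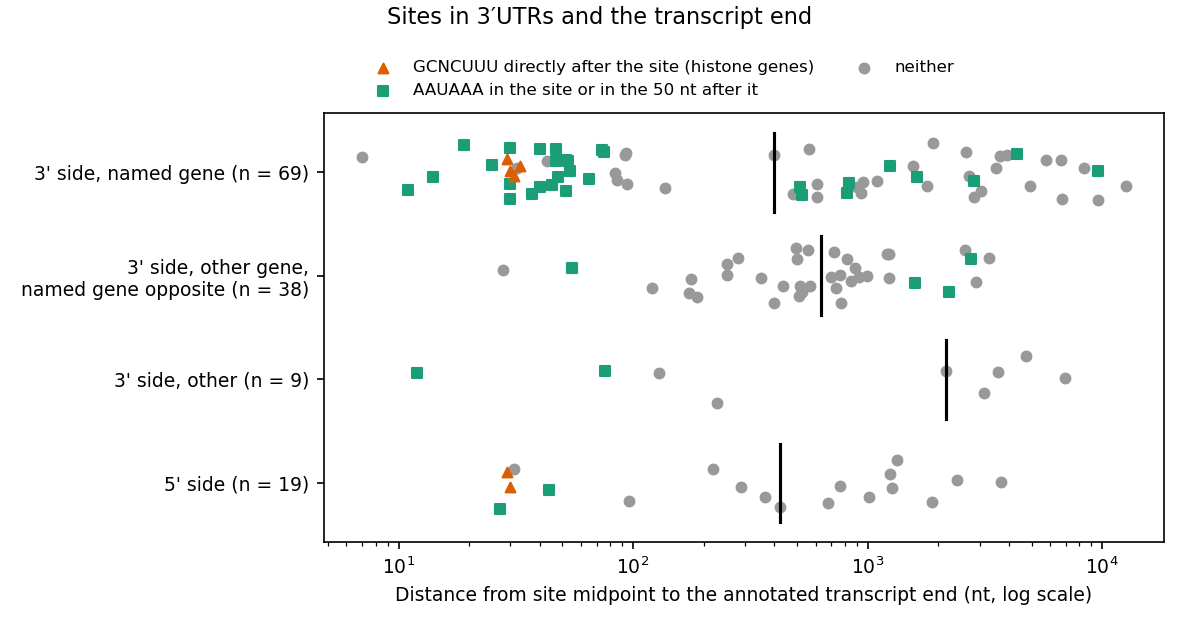
Distance from the midpoint of each site in a 3′UTR to the annotated end of its transcript (horizontal axis, nt, log scale), for 69 3′ side sites in the named gene, 38 in another gene while the named gene is on the opposite strand, 9 other 3′ side sites and 19 5′ side sites; black bars are medians. The 6 histone sites lie at 29 to 33 nt, and sites with AAUAAA gather below 100 nt in the named gene.

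The label TTS also held sites far from any end of the GENCODE transcript. RAB21, a small GTPase of endosomes, held one 12613 nt before the end, TRIM44 one at 8353 nt and KRR1, a ribosome assembly factor, one at 6774 nt. These sites lay inside long 3′UTRs (14616 nt in RAB21), and the nearest end of any GENCODE transcript was 1754, 3033 and 2172 nt upstream of them. The transcript models behind the HOMER labels were not examined. EXOC5, a subunit of the exocyst, held the shortest site, 14 nt long, whose sequence occurs at 30 places in the genome.

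The 51 3′ side sites on the strand opposite to the named gene were mostly sites in a neighbour. Of these, 38 lay in the 3′UTR of another gene, 6 in a coding exon, 2 in a noncoding exon and 5 in no exon. The 38 sites fell in 36 genes. Their midpoints lay a median of 634.5 nt before the end of their own transcript (28 to 3295 nt), and the GENCODE span of the named gene reached over 7 of the 38. The named gene held a site of its own somewhere in the list in 5 of the 38 cases. The sequences of the pairs and genes with 2 sites on the 3′ side are shown with every G in capitals, which stood only at the last base except in MAT2A site 2. Both LRRC59 sequences and 1 of MAT2A occur at 2 or 3 places in the genome.
LRRC59 site 1: aaucacuacacauuccuuuaG
LRRC59 site 2: cuucaucuuuucacaacaG
MAT2A site 1: uuaccauuaaaccaucucccuG
MAT2A site 2: cucuuaauuGccaccucuaacaG
GNG5: ccauaauauacaaacuucuacuuucG
RPF1: auuucauaaaccuuucacG
DDIT3 site 1: ccacacuacccaccuuucccaG
DDIT3 site 2: aaucaaaaaucuucaccacucuuG

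LRRC59, a membrane protein of the endoplasmic reticulum, held sites 251 and 512 nt before its end that were annotated to EME1, a DNA repair endonuclease subunit. MAT2A, which makes S-adenosylmethionine, held 2 sites at 853 and 885 nt that were annotated to GGCX. DDIT3, the stress-induced transcription factor CHOP, held a 3′UTR site at 174 nt and a coding site, both annotated to MARS1, a tRNA synthetase. GNG5, a G protein gamma subunit, and RPF1, a ribosome assembly factor, end next to each other on opposite strands: a GNG5 site was annotated to RPF1 and an RPF1 site to GNG5. GNG5 also held a site at 94 nt before its end under its own name.

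Other sites of this kind lay in ICMT, which methylates prenylated proteins (502 nt before the end, annotated to RNF207), in DNAJC11, a mitochondrial co-chaperone (187 nt, THAP3), and in MARCKSL1, an actin-binding membrane protein (55 nt, HDAC1). YARS1, the tyrosyl-tRNA synthetase, held one at 719 nt, REV1, a translesion DNA polymerase, one at 436 nt (annotated to EIF5B) and MARCHF7, a ubiquitin ligase, one at 2608 nt (CD302). CDT1, which licenses DNA replication, held one at 252 nt (APRT), HMGA1, an architectural chromatin protein, one at 759 nt (SMIM29), SQSTM1, the autophagy receptor p62, one at 918 nt (MRNIP), and DEK one at 992 nt (KDM1B).

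The genes on the own strand numbered 186, of which 172 held 1 of the 224 sites and 14 held more. Of the 186, 40 held a further site in the rest of the list. A gene with a further site in the list, other than on the same side, was found for 15 of 77 5′ side sites (19.5%) and 33 of 147 3′ side sites (22.4%), a difference of -2.97 percentage points (-13.4 to 8.87; Fisher's exact test, adjusted p = 0.732). Protein-coding genes with a site numbered 172 of 20020 in GENCODE, or 0.859%, which is the background for the gene lists below and includes genes that HEK293 cells do not express.

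Of 561 genes in 12 lists by function, 35 held a site. Among 79 cytosolic ribosomal protein genes 6 did (7.59%), all on the 3′ side: RPS24 at 11 nt, RPL27A at 129 nt, RPL38 at 137 nt, RPS19 at 956 nt and RPS29 at 5780 nt before the transcript end, and RPL36 in its coding sequence. The distances run along the GENCODE transcript that gave the position, and other transcripts of a gene can end elsewhere. With 1 transcript per gene, 109 of the 147 3′ side sites lay in a 3′UTR, against 116 by the rule used. Only 10 of the 79 ribosomal protein genes held any site of the list. Among 39 molecular chaperone genes 4 held a site: HSP90AB1, HSPA8 and CCT5 on the 5′ side and HSPA4, an HSP110 protein, on the 3′ side. Histone genes had 5 of 20, H2BC4 on the 5′ side and H1-2, H1-10, H2AX and H4C8 on the 3′ side; the list leaves out the other histone genes named above. Translation factors had 3 of 45 (EEF2, EIF4A2, EIF4G2), chromatin genes 3 of 44 (CBX5, TRIM28, HMGA1) and nuclear-encoded mitochondrial proteins 4 of 40 (TOMM20, TIMM23, UQCRQ, VDAC1). The cytoskeleton list had 4 of 41 (CFL2, ARPC5, MARCKSL1, TUBA1B), all on the 3′ side. mRNA-binding proteins had 2 of 62 (YBX1, KHSRP), splicing factors 2 of 55 (SNRPA, SON) and cell cycle genes 2 of 52 (CDT1, MAD2L1). Ubiquitin and proteasome genes had 0 of 44 and membrane trafficking genes 0 of 40, although 11 and 12 genes of these lists held a site elsewhere in the list. With counts this small no order among the lists can be read.

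The 5′ side sites were richer in G and C. The GC share per site was 41.7% ± 12.6 (SD, n = 77 sites) on the 5′ side and 34.6% ± 11.5 (n = 147) on the 3′ side, a difference of 7.08 percentage points (Welch 95% interval 3.68 to 10.5). With 10 nt added on each side of a site the shares were 46.2% and 38.5%, a difference of 7.76 points (4.82 to 10.7). The difference was thus not limited to the bases of the sites. The share of C plus A, which made up most bases on both sides, was 61.6% ± 12.6 and 60.8% ± 10.95, a difference of 0.829 percentage points (-2.52 to 4.18). For C plus A and for width the interval of the difference included 0, with widths of 22.3 ± 3.42 nt and 22.7 ± 3.52 nt (difference -0.448 nt, -1.41 to 0.512). By position in the mRNA, the GC share was 40.3% ± 13.7 for the 19 5′ side sites in 5′UTRs, 33.7% ± 9.48 for the 19 in 3′UTRs and 32.9% ± 11.1 for the 116 3′ side sites in 3′UTRs. For comparison it was 32.8% ± 9.48 in the 3′ UTR class (n = 726) and 38.9% ± 9.81 in the exon class (n = 562).

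**Figure D5:**
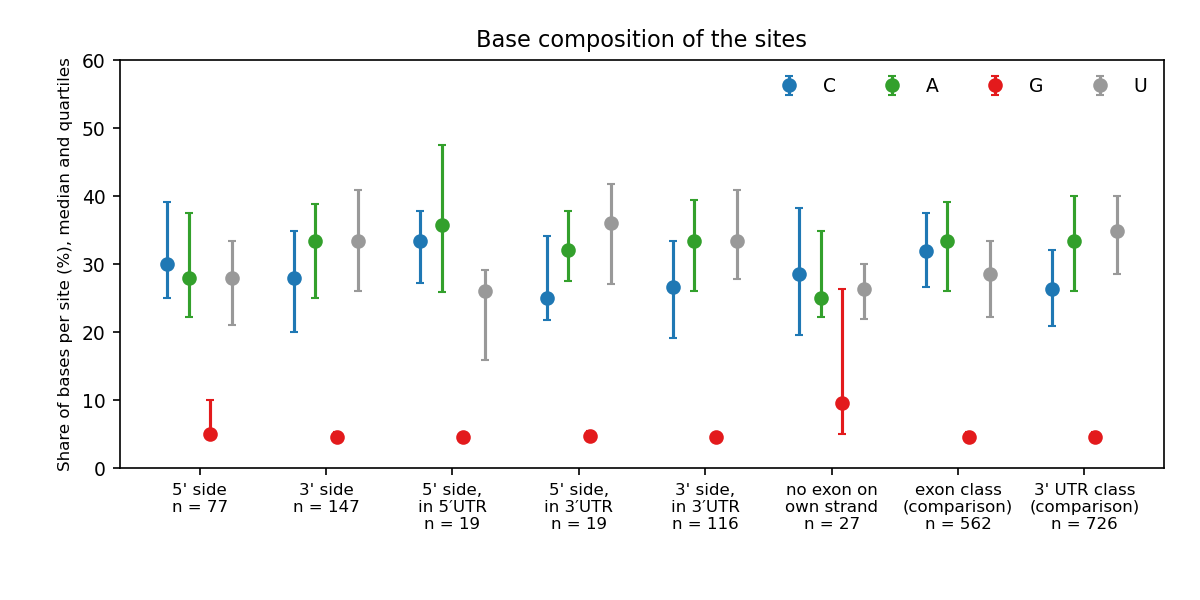
Share of each base per site (vertical axis, percent; points are medians and bars quartiles over sites) for both sides, for their sites by GENCODE position, for the 27 sites in no exon, and for 2 other classes of the list for comparison. The median G share is near 5% in all groups except the sites in no exon, where it is 9.52% and the upper quartile reaches 26.3%.

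RNase T1 leaves G at the cut end. The base before the listed end was taken as the last base because it was mostly G, so the level of the following shares was set in part by that choice. The last base was G in 67 of 77 5′ side sites (87.0%, 77.7 to 92.8) and 137 of 147 3′ side sites (93.2%, 87.9 to 96.3). The difference of -6.18 percentage points (-16.0 to 1.63) was not called (Fisher's exact test, p = 0.142, adjusted 0.284). With the listed end itself as the last base the shares were 55.8% and 63.9%, a difference of -8.10 points (-21.4 to 5.15). Among sites in an exon they were 95.3% and 96.2%, a difference of -0.928 points (-9.42 to 4.72). Sequences that occur at more than 1 place in the genome made up 6 of 77 and 23 of 147 sites, a difference of -7.85 points (-15.8 to 1.73; Fisher's exact test, p = 0.141, adjusted 0.284). Besides those given above, the sites of RAMAC, RPS29, TOMM20, MARCKSL1 and RSL24D1 each had 2 such places, as had 2 of the 3 in MTPN, so their source gene is uncertain. Of all possible tetramers, searched on the RNA strand, 0 (0.0%) differed in frequency between the sides at an adjusted p under 0.05 by Fisher's exact test with Benjamini-Hochberg adjustment, and 25 had an unadjusted p under 0.05. The lowest p among those more frequent on the 5′ side belonged to CCUC, held by 28.6% of 5′ side and 10.9% of 3′ side sites (exact p = 0.00129, adjusted 0.185) and by 14.4% of the whole list. UCGU was held by 7.79% of 5′ side and 0% of 3′ side sites, CUCC by 26.0% and 11.6%, UCCG by 5.19% and 0%, and CCGG by 6.49% and 0.680%. On the 5′ side UCGU, UCCG and CCGG rested on 6, 4 and 5 sites. Among those more frequent on the 3′ side the lowest p belonged to UUAU, held by 9.09% and 25.9% (exact p = 0.0027, adjusted 0.231) and by 17.2% of the whole list. CUUU was held by 26.5% of 3′ side and 13.0% of 5′ side sites, UUUA by 27.9% and 14.3%, UUAA by 30.6% and 16.9%, and CCUU by 21.8% and 10.4%.

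The 27 sites in no exon on their strand, 13 on the 5′ side and 14 on the 3′ side, differed in their bases. The last base was G in 15 of 27 (55.6%, 37.3 to 72.4) against 189 of the 197 sites in an exon (95.9%, 92.2 to 97.9). A G before the last base was present in 16 of 27 and in 30 of 197. This split was chosen after the values were seen and was not tested. Several of the 27 and 1 site in a noncoding exon (BCAR3) are shown with every G in capitals. The no-exon sites shown all end in another base than G, unlike 15 of the 27, so they do not stand for all 27.
MALRD1: auuaacuGccuGGGGaGua
ACVRL1: caucuaaGuaccuGcaGGa
MALL: uaacaauGcuGGGucuu
TES: GacuaaGuaaucGuuaGGcucccu
FBXO31: aaucuGaaGGucGuGaGuucGaGccuc
BCAR3: aGGuuccGGGuucGaGucccGGcGGaG

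The BCAR3 site held GGUUCGA, and the FBXO31 site the shorter UUCGA; on the RNA strand, 4 of the 2054 sites of the list held the first and 14 the second. The MALRD1 site lay 17 nt before an annotated start. Of the other sites in no exon, some were of the usual C- and A-rich kind with a single final G, such as those beside AIDA, ZNF227 and RPL26.

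Near copies of mitochondrial DNA made up 5 sites, each of which differed from the mitochondrial genome at 1 base. They were annotated to MTRNR2L4, MTRNR2L1 and MIR4461 (3 sites), and the last 3 lay in the pseudogenes MTND4P12 and MTND4LP30. In the whole list, 12 sites outside the mitochondrial chromosome were within 2 mismatches of it. Whether reads at these sites came from mitochondrial or nuclear RNA was not tested.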

How the data were processed

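PAR-CLIP of YBX1 was measured in 2 replicate libraries of HEK293 cells. Per the study's methods and the submitters' processing notes, the authors removed adapters with cutadapt 1.4.1, mapped the reads to human genome GRCh38 plus an Ensembl transcriptome in PARA-suite, merged both replicates into strand-specific clusters with BMix and labelled the clusters with HOMER. The deposited table holds other values than counts: genomic start and end positions, strand, cluster name, gene and HOMER annotation, without reads, scores or depth.

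Sites were taken by the HOMER label before the bracket. The listed start was used as the first base and the base before the listed end as the last one, since that base was G in most sites on both strands. Midpoints were placed in GENCODE 44 on the own strand. Where transcripts differed, a 3′UTR took precedence over coding sequence, that over a 5′UTR, and exons of noncoding transcripts came before introns. Named transcripts were matched to genes through RefSeq's table by accession for 210 sites and by gene name for 6, and the strand of the gene was found for 211. Exact occurrences of each sequence were counted over the main chromosomes and both strands.

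Shares were compared by two-sided Fisher's exact tests with Benjamini-Hochberg adjustment and Newcombe 95% intervals, and means by Welch 95% intervals, in Python 3.11.15 with SciPy 1.17.1. The tetramer test was tested on simulated data with the same base composition on both sides. It recovered a tetramer planted in 40% of the 5′ side sites in 20 of 20 runs and made 0 calls without one. Contrasts as small as that of CCUC were not simulated, so the power of the test for these is not known. The members, lists and tests were chosen with earlier results of these data known. Named were genes with at least 2 sites, every 5′ UTR site, the 10 sites nearest to a start or an end, CBX5 and YBX1, up to 4 genes of each list, up to 10 sites on the opposite strand and the 5 tetramers with the lowest p in each direction; the other genes named were chosen after their values were seen. Sites on chromosome 8 are counted but their sequences are not shown, and a few further sites are counted but not reported here singly.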

Additional observations from a re-analysis of the deposited data

How the results depend on the processing

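Of 65 repeats under other settings, 61 kept the direction and the side of the threshold or, for shares of a position, stayed within the interval of the reported value. With promoter-TSS sites alone as the 5′ side, the strand difference turned from 6.25 to -0.185 percentage points, and the share of 5′ side sites in a 5′UTR moved from 24.7% to 10.3%. The C plus A difference turned from 0.829 to -0.131 points among sites wider than the median of the list, and rose to 3.39 points with an interval above 0 when G was left out of the bases counted. Where the setting does not itself change the sites or bases counted, the cause was not tested. The repeated-sequence comparison could not be fitted among sites with a single place in the genome. A restriction to sites in an exon, chosen after seeing the data, changed no call but moved the difference in a final G from -6.18 to -0.928 points and the strand difference from 6.25 to 9.80. The gene column's strand raised the latter to 12.5, without a call. No paired analysis was possible because both replicates were pooled in 1 list, and for the same reason no replicate could be left out. Without reads per site, depth and occupancy cannot be compared.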
